A study of Drosophila melanogaster with 6 samples.

Results

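S2-only AGO2 sites are peaks of the S2 list that overlap no peak of the S3 list by 1 bp or more. They number 298 of the 2084 S2 peaks (14.3%), and of 5243 peaks in both lists together. Members were chosen by the deposited positions of the peaks in both lists, so the absence of an S3 peak is the rule itself and not a result. Widths, false discovery rates (FDR) and spacings of these sites come from the same lists and are described without a test. Following the rule, the sites were divided by the number of bases to the nearest S3 peak into 103 near sites, up to 5 kb away, and 195 distant sites, more than 5 kb away.

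Argonaute 2 (AGO2) is the Argonaute protein that carries small interfering RNAs in Drosophila and cuts the RNAs they match, which silences viruses and transposons. The series concerns another setting, chromatin insulators, which are DNA elements that limit contacts between enhancers and promoters. CTCF binds insulator DNA through its zinc fingers, and CP190 is a cofactor that insulator proteins share. S2 and S3 are cell lines that Schneider derived from Drosophila melanogaster embryos, and S2 cells have features of blood cells.

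The series has 6 samples, and the values here come from the ChIP-seq library of each line made with the monoclonal anti-AGO2 antibody 9D6. The labels give the same growth medium for both lines, Shields and Sang M3 with serum, and name no treatment or allele. Not used here were 3 libraries of input DNA and the S2 ChIP with the Mueller antibody, whose title calls it rep2. Each line is represented here by 1 library, so no value has a replicate error. Depth is unknown, and a site absent from the S3 list cannot be told apart from a site that missed the S3 threshold. Coordinates refer to dm3 and start at 1. No genome or annotation of that build was used, so sites are named by position, with neither genes nor sequences.

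S2-only sites covered 405.4 kb, which is 12.5% of the sequence under S2 peaks. Their median width was 1069 bp, with an exact binomial interval of 954 to 1172 bp and quartiles of 647.75 and 1635 bp. All intervals are at 95% and cover counting error over peaks only, and neighbouring peaks are not independent of each other. An overlap of intervals does not show that values are alike, and no difference was tested. The narrowest site measured 150 bp and the widest 14802 bp. Sites under 500 bp numbered 44 (14.8%, against 7.82% of all S2 peaks), and sites of 3 kb or more numbered 18 (6.04%, against 9.26%). At 5 kb or more there were 4 (1.34%, against 2.3%). Under a 1 bp rule a narrow peak has fewer bases with which to meet the other list, so nothing is read from these shares.

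The distance to the nearest S3 peak ran from 1 bp to 1293.7 kb. Its median was 11.6 kb (interval 8.23 to 13.65 kb) and its quartiles were 2.36 and 26.1 kb. At the close end, 17 sites had an S3 peak within 100 bp and a further 23 had one between 100 and 500 bp away. From 500 bp to 1 kb there were 10 sites, and from 1 to 5 kb there were 53. Among distant sites, 33 lay 5 to 10 kb from an S3 peak, 73 lay 10 to 20 kb away, 53 lay 20 to 50 kb away, and 36 had no S3 peak within 50 kb.

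**Figure D1:**
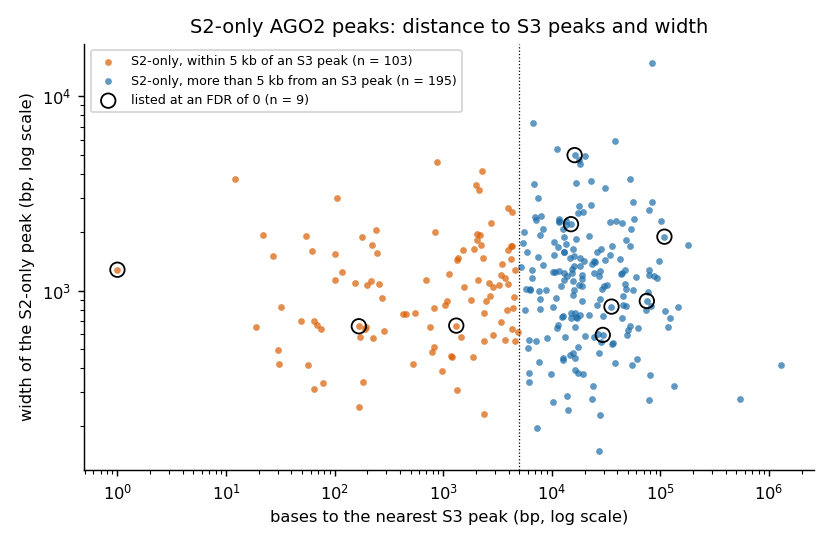
Each point is an S2-only AGO2 peak; the x axis is the number of bases to the nearest S3 peak and the y axis the peak's width, both in bp on log scales. The dotted line marks 5 kb, with 103 near sites to its left and 195 distant sites to its right, and rings mark the 9 sites listed at an FDR of 0, which occur on both sides.

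The border of the rule ran between peaks that missed an S3 peak by a few bases and peaks that met it by a few. Just inside, the S2 peak at 470022 to 471303 on 2L (1282 bp, FDR 0) ended 1 bp before an S3 peak of 1448 bp that was itself met by another S2 peak. On 3R, the S2 peak at 26625039 to 26628811 (3773 bp, FDR 2.31%) had 12 bp between it and an S3 peak of 3877 bp. The next closest sites, all on 2R, were 19, 22 and 27 bp from an S3 peak. In each of these 5 cases, the nearest other S2 peak was a shared one, 7 to 158 bp away. Just outside, the shared S2 peak with the smallest overlap met its S3 partner by 26 bp, at 10195311 to 10196932 on 2R. The following shared peaks met theirs by 53, 81, 83 and 173 bp, and the last of these lay whole inside its S3 peak. At the 5 kb border, the outermost near site was 4870 bp from an S3 peak and the innermost distant site 5221 bp.

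Near S2-only sites stood beside S3 peaks of both kinds, those met by another S2 peak and those met by none. For 69 of the 103 near sites (67.0%, 57.0 to 75.9%), the closest S3 peak was met by another S2 peak. The same held for 103 of the 195 distant sites (52.8%, 45.6 to 60.0%), and 55.5% of all S3 peaks were met by an S2 peak. The intervals of near and distant sites overlap. The 55.5% counts each S3 peak once, whereas neighbouring sites can have the same nearest S3 peak, so the shares of sites are not compared with it. The 69 near sites lay a median of 870 bp from the S3 peak (quartiles 179 and 2242 bp) and 28 of them within 500 bp. Their median width was 899 bp, against 1448 bp for the S3 peaks beside them. The 1 bp rule favours wide peaks among those met and narrow peaks among those not met, so nothing is read from this difference. The closest S3 peak was listed at an FDR of 0 in S3 for 42 of the 69. The share over all S3 peaks is not given here, so this count is not read as high or low. S3 peaks stood within 5 kb on both sides of 18 near sites (17.5%, 10.7 to 26.2%), against 13.3% of all S2 peaks, a share inside that interval.

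An example beside shared peaks lies on 3R. The S2-only peak at 12035748 to 12036403 (656 bp) was listed at an FDR of 0. It had 167 bp between it and an S3 peak of 681 bp, and 159 bp between it and a shared S2 peak. Within 20 kb of its centre stood 5 shared S2 peaks, 5 shared S3 peaks and 1 S3-only peak. A further S2-only peak in that stretch, at 12054267 to 12058849, was the widest of the near sites with 4583 bp. Its FDR was 0.08%, and a shared S2 peak lay 232 bp away. On X, the near site at 1122509 to 1123989 (1481 bp, FDR 0.07%) had a shared S2 peak 281 bp away and an S3 peak 2324 bp away.

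The other 34 near sites (33.0%, 24.1 to 43.0%) stood next to an S3 peak that no S2 peak met. That S3 peak was listed at an FDR of 0 in S3 for 7 of the 34. Without the share over all S3 peaks, this count is not compared with that of the other near sites. In 30 of the 34, the S2-only and the S3-only peak were each the nearest peak of the other list. The S3 peak was already the nearest to its site, so this could fail only where another S2 peak lay closer to it. The count is largely fixed by that choice and is not read as a result. The 30 pairs lay a median of 1786.5 bp apart, with a range of 55 to 4589 bp, and 11 were within 500 bp. The S3 peak was the wider in 20 pairs and the S2 peak in 10. The closest pair was on 2R, where an S2-only peak at 11023588 to 11025489 (1902 bp, FDR 0.08%) followed an S3-only peak at 11022456 to 11023532 (1077 bp, FDR 0) after 55 bp. On 3R, an S2-only peak of 412 bp at 4859300 to 4859711 preceded an S3-only peak of 657 bp by 57 bp. On 2L, an S2-only peak of 2996 bp at 6671181 to 6674176 lay 106 bp past an S3-only peak of 4976 bp. A near site at the tip of 3R, at 27811062 to 27811832, had its S3-only partner 552 bp away and no other S2 peak within 234.2 kb. Whether such pairs are a single site with shifted borders was not tested, since the lists hold no summits or read profiles.

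**Figure D2:**
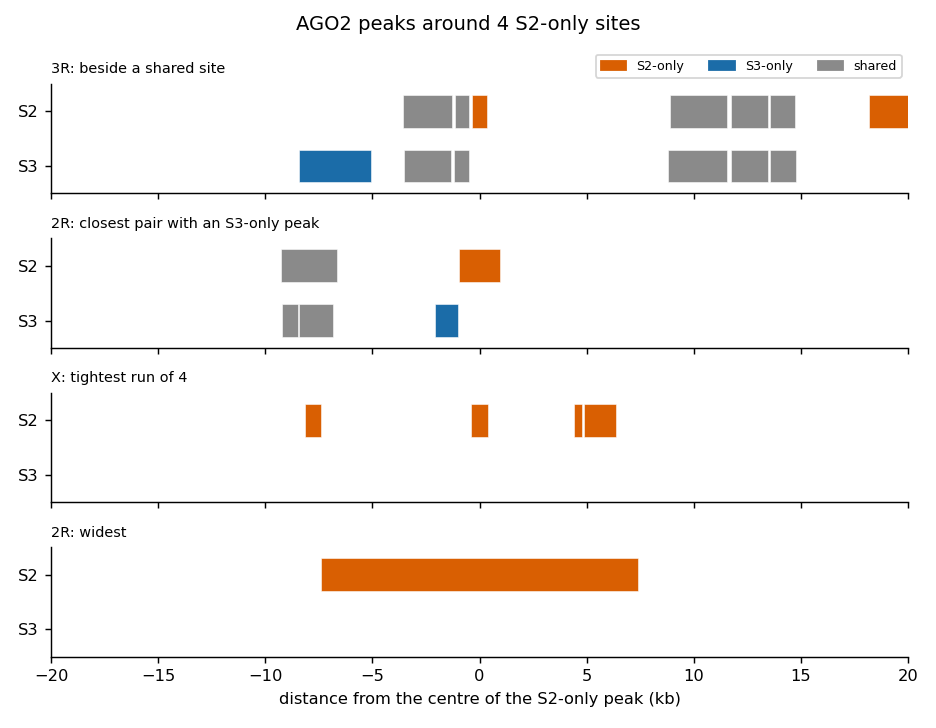
Peaks of the S2 list (upper row) and the S3 list (lower row) within 20 kb of the centre of 4 S2-only peaks, drawn to scale in kb; colours mark S2-only, S3-only and shared peaks, and peaks that reach the edge are cut there. From the top: a site beside shared peaks on 3R, the pair of an S2-only and an S3-only peak 55 bp apart on 2R, the 4 neighbouring S2-only peaks on X (centred on the second) with no S3 peak in view, and the 14802 bp peak on 2R with no S3 peak in view.

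Distant S2-only sites lay apart from the sites common to both lines. The nearest S3 peak was a median of 18.1 kb away (interval 16.3 to 22.7 kb), and within 50 kb there were a median of 2 S3 peaks, against 4 around near sites and 5 around shared S2 peaks. The closest shared S2 peak lay a median of 32.3 kb away, and none of the 195 had one within 5 kb. The split by distance to S3 fixes much of this, because a shared S2 peak brings an S3 peak with it. The nearest S3 peak was at an FDR of 0 in S3 for 86 of the 195 (44.1%) and for 49 of the 103 near sites (47.6%). The share over all S3 peaks is not given here, so neither value is read as high or low.

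The widest distant site was a peak of 14802 bp on 2R, at 19857731 to 19872532. Its FDR was 2.96%, and it had no S3 peak within 83.7 kb and no other S2 peak within 92.9 kb. The next widest, of 7262 bp at 19012526 to 19019787 on 3R, had an FDR of 3.95% and an S3 peak 6.75 kb away. Broad distant sites at a low FDR were also listed. A peak of 5895 bp on 3L, at 22355147 to 22361041, had an FDR of 0.11% and lay 37.9 kb from an S3 peak. A peak of 5386 bp on 2R, at 15243434 to 15248819, had an FDR of 0.14% and lay 11.2 kb from an S3 peak and 62.1 kb from another S2 peak. The fifth, of 4989 bp at 2531342 to 2536330 on 3L, was at an FDR of 0.

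Distant sites at an FDR of 0 numbered 6, and near ones 3. The 9 together are 3.02% of S2-only sites, against 23.3% of all S2 peaks. On 2L, the distant peak at 22023335 to 22025231 (1897 bp) lay 108.7 kb from the nearest S3 peak, at the centromeric end of the arm. Also on 2L, the peak at 4887127 to 4888011 (885 bp) lay 74.8 kb from an S3 peak. The peak at 20193024 to 20193851 on 2R (828 bp) lay 35.4 kb away. The remaining ones, on 3L, measured 592 and 2200 bp at 5239711 to 5240302 and at 5762071 to 5764270. Their nearest S3 peaks were 29.4 and 15.0 kb away.

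Near and distant sites had the same median FDR in the S2 list, 0.61%, with intervals of 0.32 to 1.22% and 0.33 to 1.05%. The median of shared S2 peaks was 0.11%. An FDR above 1% was listed for 44 of 103 near sites (42.7%) and 84 of 195 distant sites (43.1%), against 18.3% of all S2 peaks. The share of near sites among S2-only sites stayed between 31.25% and 37.3% in each of 7 FDR classes. The farthest group, with no S3 peak within 50 kb, had a median FDR of 1.345%, and 20 of its 36 sites were above 1%. In the other distance groups, the median lay between 0.33% and 1.61%.

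The S2-only share was highest above an FDR of 2%, but S2-only sites did not lie at the weak end of the list alone. At an FDR of 0, 9 of 485 S2 peaks were S2-only (1.86%, 0.852 to 3.49%), the lowest share of any class. Above 0 and up to 0.1%, 59 of 416 S2 peaks were S2-only (14.2%, 11.0 to 17.9%). Between 0.1% and 0.2% there were 48 of 564 (8.51%, 6.34 to 11.1%). The share was 17.0% (24 of 141) between 0.2% and 0.5% and 31.25% (30 of 96) between 0.5% and 1%. It was 25.6% (32 of 125) between 1% and 2% and 37.4% (96 of 257, 31.4 to 43.6%) above 2%. Over all FDR values, the median width was 1069 bp for S2-only and 1217.5 bp for shared peaks. By FDR class, the S2-only median was 1216 bp against 1193 bp between 0 and 0.1%, and 1071 bp against 1037 bp above 2%. It was below that of shared peaks in the other 5 classes, with 768 against 1037 bp between 0.5% and 1%, and 885 against 1303 bp at an FDR of 0, where 9 sites were S2-only.

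**Figure D3:**
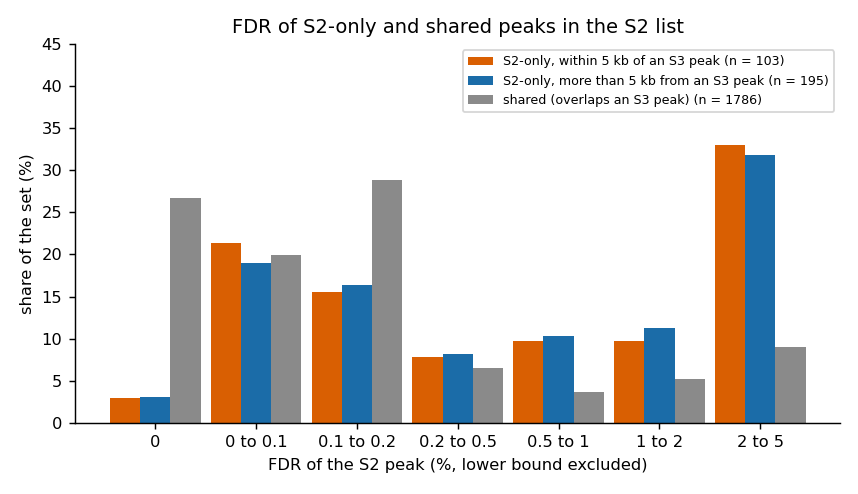
Bars give, for near S2-only, distant S2-only and shared S2 peaks, the share of the set (%) in each class of the authors' FDR in S2; a class excludes its lower bound, except the first, which is an FDR of 0. Near and distant bars are of similar height in each class, and 33.0% and 31.8% of them are above 2%, against 9.01% of shared peaks.

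Near sites were the narrower set, with a median of 938 bp (800 to 1130 bp) against 1140 bp (1004 to 1237 bp) in distant sites, and these intervals overlap. The largest near site measured 4583 bp, and the 4 sites of 5 kb or more were all distant. Sites within 100 bp of an S3 peak had a median width of 696 bp (17 sites), those at 500 bp to 1 kb one of 710.5 bp (10 sites), and every other distance group lay between 994 and 1198 bp.

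Spacing within the S2 list set the sets apart. The nearest other S2 peak was a median of 1.85 kb from a near site (1.08 to 2.91 kb) and 26.3 kb from a distant site (19.0 to 30.7 kb), with 4.48 kb for shared S2 peaks (3.79 to 5.30 kb). Another S2 peak stood within 5 kb of 75 near sites (72.8%) and 19 distant sites (9.74%), against 48.8% of all S2 peaks. Within 500 bp the counts were 30 near sites (29.1%) and 13 distant sites (6.67%), against 29.5%. No other S2 peak stood within 50 kb of 8 near sites (7.77%) and 50 distant sites (25.6%), against 12.7%. The nearest other S2 peak was a shared peak for 95 near sites (92.2%) and for 147 distant sites (75.4%), against 88.4% of all S2 peaks. Spacing and the split both follow the positions of shared peaks, so these values describe the sets and are not independent of the rule.

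**Figure D4:**
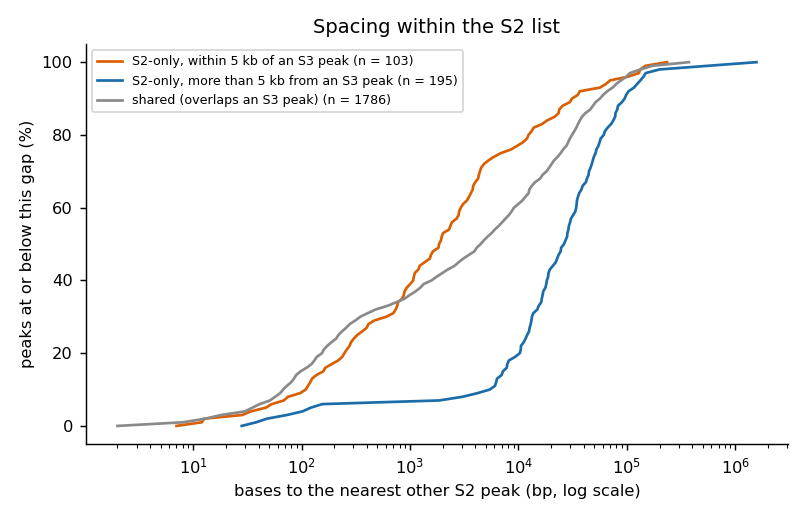
Cumulative share of peaks (%) whose nearest other S2 peak lies within the gap on the x axis (bp, log scale), drawn from percentiles for near S2-only, distant S2-only and shared S2 peaks. The median gap is 1.85 kb for near, 26.3 kb for distant and 4.48 kb for shared peaks, and the curve of distant sites stays below 10% up to 5 kb.

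Most S2-only sites stood singly along the S2 list. A shared S2 peak preceded and followed 199 of them, or the arm ended there, and 38 runs held 2 neighbouring S2-only peaks. Since only 14.3% of S2 peaks were S2-only, most neighbours of any S2 peak are shared, and nothing is read from these counts. The nearest other S2 peak was shared for 81.2% of S2-only sites, against 88.4% of all S2 peaks. Runs of 3 or 4 numbered 7, with 23 peaks. The tightest was on 3L from 5239711 to 5242692, where 3 peaks of 592, 229 and 479 bp stood within 2982 bp. Their FDR values were 0, 1.97% and 1.42%, and no S3 peak lay within 27.0 kb. On X, 4 peaks spanned 14.5 kb from 4274750 to 4289286, with FDR values of 0.67%, 1.97%, 0.08% and 0.09%. That run lay 15.9 to 29.7 kb from S3 peaks, and its last 2 peaks were 73 bp apart. On 2R, 4 peaks of 935 to 4699 bp spanned 77.9 kb from 9388814 to 9466740 with no S3 peak between them. On 2L, 3 peaks from 4887127 to 4916275 spanned 29.1 kb, and the S3 list had no peak within 74.8 kb of any of them. The other 3 runs spanned 77.2 to 336.1 kb and had 1 to 3 S3 peaks inside.

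The large arms held from 2.23 S2-only sites per Mb on 3R to 2.65 per Mb on 2R. The counts were 57 on 2L, 56 on 2R, 63 on 3L, 62 on 3R and 55 on X. X held 18.5% of S2-only sites (14.2 to 23.3%), against 23.3% of all S2 peaks. As a share of the S2 peaks of an arm, S2-only sites were lowest on X, at 11.3% (8.66 to 14.5%), and highest among the large arms on 2R, at 16.5% (12.7 to 20.8%); these intervals overlap. Near sites made up 41.8% of S2-only sites on X (23 of 55, 28.7 to 55.9%) and 31.7% to 38.6% on the other large arms. Median widths were 1459.5 bp on 2R (1130 to 1704 bp), 1192.5 bp on 3R, 924 bp on 2L, 846 bp on X and 828 bp on 3L (647 to 1198 bp). Shared peaks differed less between 2R and 3L, with medians of 1465 and 1167 bp.

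The small chromosome 4, which is largely heterochromatic, had 5 S2-only sites among its 12 S2 peaks (41.7%, 15.2 to 72.3%), or 3.81 per Mb. They are 1.68% of S2-only sites, against 0.576% of all S2 peaks, and all 5 were distant. The peaks at 715600 to 716382 and 724266 to 726562 (783 and 2297 bp, both at 0.14%) were 7.88 kb apart. They lay 111.1 and 100.9 kb from their nearest S3 peak. That S3 peak, at 827437 to 829473 (FDR 4.38% in S3), was also the nearest to the sites at 1009911 and 864923. The peak at 1009911 to 1011629 (1719 bp, 0.15%) lay 180.4 kb from the nearest S3 peak. The peak at 864923 to 865455 (533 bp, 0.16%) lay 35.4 kb away, and the peak at 64211 to 64878 (668 bp, 0.66%) lay 11.5 kb away.

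Along the 5 large arms, the S2-only share of S2 peaks was nearly flat. With each arm divided into 5 equal parts from the centromere to the telomere, the shares were 13.4%, 13.6%, 13.1%, 15.8% and 14.7%, and their intervals overlap. The part next to the centromere held 40 of the 293 S2-only sites on these arms (13.7%, 9.94 to 18.1%) and was the least filled in the pooled count, as it was for shared peaks with 259. On 3R it was not, with 15 S2-only sites against 9 to 16 in the other parts. Pooled over the arms, 30 of the 40 sites in the innermost part were distant. Their median gap to another S2 peak was 29.0 kb, against 12.2 to 13.6 kb in the other parts. The arms differed in this: the innermost part had the widest median gap on 2L (31.3 kb), 3L (38.9 kb) and X (35.1 kb). On 3R it was 18.2 kb there, against 34.0 and 27.5 kb in parts 2 and 4 counted from the centromere, and on 2R it was 23.8 kb, against 26.0 and 27.6 kb in parts 4 and 5. Pooled over the arms, shared peaks were also farther apart in the innermost part, at 9.73 kb against 2.03 to 6.43 kb.

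**Figure D5:**
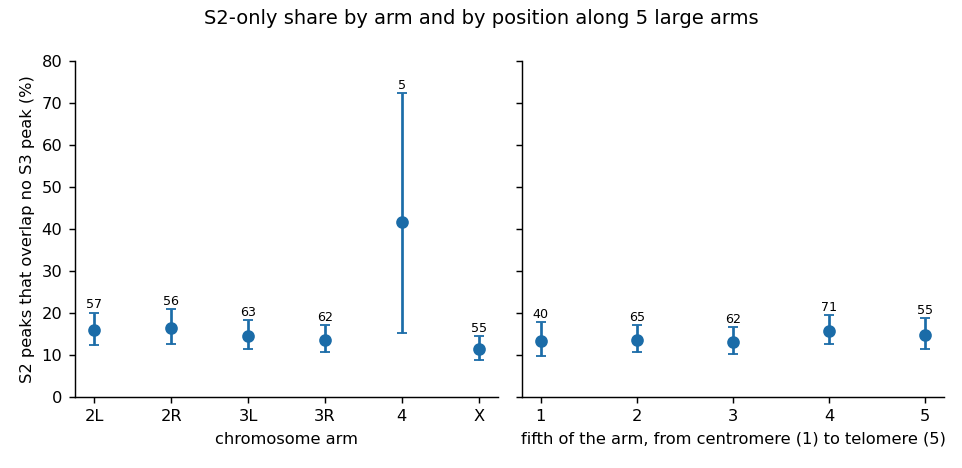
S2-only peaks as a share (%) of S2 peaks on each chromosome arm (left) and in each of 5 equal parts of the 5 large arms from centromere to telomere (right); error bars are exact 95% binomial intervals and numbers above them count S2-only peaks. Shares lie between 11.3% and 16.5% on the large arms and between 13.1% and 15.8% along them, and chromosome 4, with 12 S2 peaks, has the widest interval.

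The most isolated S2-only sites lay partly near centromeres and partly elsewhere along the arms. On 2R, a peak of 414 bp at 9897 to 10310 (FDR 4.69%) was 1293.7 kb from the nearest S3 peak and 1567.9 kb from another S2 peak. On 3L, peaks of 277 bp at 23482447 to 23482723 (FDR 4.68%) and of 324 bp at 24327801 to 24328124 (FDR 0.33%) were 540.1 and 845.1 kb from other S2 peaks. The S3 list had a peak 132.9 kb from the latter and 539.3 kb from the former. These sites, all in the centromeric part of their arm, were narrow. Away from centromeres, a 654 bp peak in the middle of 2L at 10339223 to 10339876 (FDR 0.14%) was 430.3 kb from another S2 peak and 117.3 kb from an S3 peak. Another on 2L, at 14848586 to 14849413 (828 bp, FDR 2.1%), was 146.0 kb from an S3 peak. The near site at the tip of 3R, at 27811062 to 27811832, was 234.2 kb from another S2 peak but 552 bp from an S3 peak.

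The bithorax complex of homeotic genes on 3R is a region known for its CTCF insulators. In the stretch of 3R that takes it in, the S2 list had 18 peaks between positions 12526430 and 12892369, of which 3 (16.7%) were S2-only, a share near the 14.3% of the whole S2 list. The peak at 12526430 to 12527568 (1139 bp, FDR 4.17%) lay 695 bp from an S3 peak. The peaks at 12624227 to 12624678 (452 bp, 1.62%) and 12827821 to 12829011 (1191 bp, 0.14%) lay 12.6 and 13.9 kb from S3 peaks.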

How the data were processed

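Peak lists of the 9D6 ChIP libraries of S2 and S3 were used, grouped by sample title. The submitters' processing notes name MACS 1.3.7.1, Bowtie 0.12.5 and, as genome build, dm3, without their roles. Per the file headers, the authors' lists hold peaks at an FDR of 5%. The last column of a deposited row was taken to be the peak's FDR in percent, since it reaches 4.94 in S2 and 5 in S3. Peaks were deposited per library, not pooled. Control library and filters: not given in the sources used here. An FDR depends on its own library's depth and background.

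Overlaps and border-to-border gaps were computed with Python 3.11.15, numpy 2.4.6, scipy 1.17.1 and pandas 2.3.3, tested on simulated lists and checked against bedtools 2.31.1; figures were drawn with matplotlib 3.10.9. Shares have exact binomial (Clopper-Pearson) intervals and medians exact binomial order-statistic intervals, at 95%. The span of an arm was its largest peak end in either list. With 1 library per line, no test was run. Named sites follow a fixed rule: up to 5 each of the closest, widest, lowest in FDR, farthest and most isolated, plus all at an FDR of 0, runs of 3 or more, chromosome 4 and the 3R stretch; the closest S2-only to S3-only pairs and the sites at the 5 kb border were added after seeing values. Members and descriptions were chosen with earlier results of these data known. Other overlap rules, joining, FDR limits and distances were tried.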

Additional observations from a re-analysis of the deposited data

How the results depend on the processing

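Of 40 values recomputed under alternatives, 29 stayed within the 95% interval of the value reported (for the number of sites, within 1.5 times), and 11 moved. The share of near sites, 34.6%, followed how distance and overlap were defined: it was 49.1% when 50% of the S2 peak had to lie in S3 peaks, 24.4% when S2 peaks less than 500 bp from an S3 peak counted as shared, 28.2% after joining peaks closer than 500 bp, 28.2% with distances between centres, and 22.1% and 45.6% with the border at 2 and 10 kb. The rule of 50% overlap also gave a median width of 1242 bp. Joining gave a median gap to the nearest other S2 peak of 18.8 kb (18756 bp), against 15.3 kb. With S2 peaks at an FDR of 1% or less, 170 S2-only sites were left, with a median FDR of 0.14%, by construction. With arms divided into 10 parts in place of 5, the innermost part, smaller by construction, held 6.83% of sites. The number of sites ranged from 170 to 383. No paired analysis was possible because 1 library per line was used and no test was run. Read depth is unknown, and it limits which sites either list could hold.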

Other observations

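In windows of 100 kb, 252 held at least 1 S2-only peak, and 214 of these held a single one. In 29 of the 252 windows there was no S3 peak, and these held 31 S2-only peaks. Where a window has no S3 peak, its S2 peaks are S2-only almost by the rule itself. Shares over all windows are not given, so nothing is read from these counts. The largest number, 4 S2-only peaks among 7 S2 peaks and beside 3 S3 peaks, was found on X between 4.2 and 4.3 Mb.

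Another S2 peak stood within 5 kb of 19 distant sites, and none of the distant sites had a shared S2 peak that close. These neighbours were therefore themselves S2-only peaks. The split by distance to S3 fixes much of this, because a shared S2 peak brings an S3 peak with it.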
